A study of Mus musculus with 6 samples.

Results

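The kinesin motor family was represented by 39 genes among the 19938 genes that could be tested in a comparison of mouse cortical neural progenitors with the neurons they produce. Members were chosen by symbol alone, as genes called Kif or Kifc followed by a number, measured by a probe set annotated to 1 gene. Together they had 44 probe sets, and where a gene had 2 of them (5 genes) the brighter on average was used. No measured difference entered the choice of genes.

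The series holds 6 samples of brain cells from C57BL/6J mice, sorted by fluorescence with a dual reporter. The 3 GFP+ samples are cortical neural progenitors and the 3 RFP+ samples are neuronal progeny, labelled as differentiated. Neither group received an agent or carried a mutation that the labels name. The labels give the cortex as the source of the GFP+ cells and only the brain for the RFP+ cells. Neither the animals' age nor the promoter behind each reporter is given in the sources used here, nor is it said whether replicates came from separate animals, so p-values measure the spread between these samples, which may be technical.

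Kinesins are motor proteins that hydrolyse ATP to walk along microtubules, or in a few cases to take microtubule ends apart. Some act in dividing cells, where they separate spindle poles, move chromosomes and build the midzone at which the daughter cells part. Others carry vesicles, mitochondria and protein complexes along axons and dendrites or inside the primary cilium, and neurons, with their long processes, are the classic cells in which this transport is studied. The 39 genes were sorted by these textbook roles into 12 mitotic motors, 15 transport motors and 12 motors of the cilium, of signalling or of microtubule dynamics.

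The mitotic motors were higher in progenitors, with 1 exception, whereas the transport motors were divided and most did not pass the test. Of the 12 mitotic motors, 11 were higher in GFP+ progenitors and none was higher in RFP+ neurons, with a median log2 difference of 2.37. Of the 15 transport motors, 6 were higher in RFP+ neurons, 1 was higher in GFP+ progenitors and 8 did not pass the test, with a median of -0.46. The third group was mixed, with 4 higher in progenitors, 3 higher in neurons and 5 not passing. Its median of -0.25 became -0.13 without RFP+ replicate 3. In these counts a gene passed when its adjusted p was under 0.05 in limma, fitted to log2(intensity + 16) across all genes with Benjamini-Hochberg adjustment. All log2 differences are GFP+ minus RFP+ on that scale, and all folds are taken from it, so the folds of dim genes are understated.

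For comparison, 13.8% of all genes tested passed with GFP+ higher and 16.2% with RFP+ higher, with a median log2 difference of -0.08. In the whole family 16 of 39 genes (41.0%) were higher in progenitors and 9 (23.1%) were higher in neurons. At least a 2-fold difference was reached by 14 members higher in progenitors and 3 higher in neurons, where the shares over all genes were 7.0% and 5.98%. Both counts use folds as measured. The 14 include Kif24, dim on every array, and Kif14, dim on every RFP+ array, as described below. All arrays of one group lay above all arrays of the other for 17 members with GFP+ higher (19.9% of all genes) and for 13 with RFP+ higher (24.1%). In bulk samples fewer cells of a type and less RNA per cell cannot be told apart. The precision of every value is limited by the number of arrays, 3 per group.

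**Figure D1:**
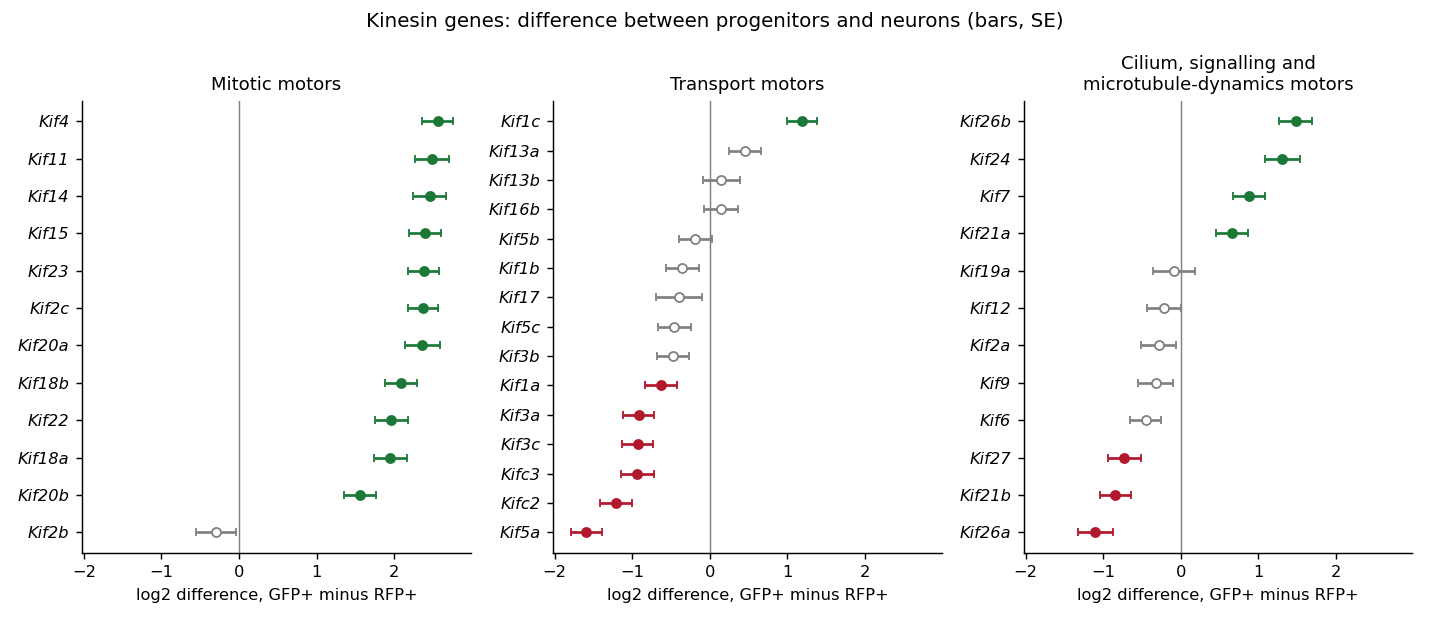
Log2 difference (GFP+ progenitors minus RFP+ neurons) of each of the 39 kinesin genes with its SE from limma, in 3 role groups. Filled points passed at an adjusted p under 0.05, green where GFP+ was higher and red where RFP+ was higher, and open grey points did not pass. The mitotic motors other than Kif2b lie between 1.56 and 2.56, whereas the transport motors run from -1.60 to 1.18.

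The markers of both sorted populations were checked first. All 8 progenitor markers, among them Pax6, Sox2 and Nes, were higher on the GFP+ arrays, and all 8 neuron markers, among them Tubb3, Tbr1 and Snap25, were higher on the RFP+ arrays. Neither population was free of the other's transcripts, since all 8 neuron markers on the GFP+ arrays and 7 of 8 progenitor markers on the RFP+ arrays had a group mean above the near-background level. That level was taken as the 95th percentile of 1027 olfactory receptor genes, which are not known as genes of these cells, and it lay between 199 and 224 per array. Markers of endothelial cells (10 of 10), mural cells (7 of 8) and the oligodendrocyte lineage (4 of 4) were also higher in GFP+. Their summed intensities were 2225 to 7100.1 against 792 to 1028, 5529 to 7202 against 1103 to 1288, and 1082 to 1703 against 183 to 204. Of 7 microglia markers none passed. Of 6 markers of inhibitory neurons, Gad2 (log2 difference 0.90) and Dlx2 (0.99) were higher in GFP+ and 4 did not pass. Their summed intensities were 8514 to 9001 on the GFP+ arrays and 3789 to 8661 on the RFP+ arrays, and RFP+ replicate 1 was the highest RFP+ array for each of the 6.

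The mitotic motors formed a tight block. Each of the 11 that passed was, as measured, between 2.96-fold and 5.90-fold higher in GFP+ progenitors, and in each of them the lowest GFP+ array lay above the highest RFP+ array. Kif4, a chromosome-bound motor that also organises the spindle midzone, had intensities of 923, 1169 and 1192 on the GFP+ arrays and 165, 182 and 167 on the RFP+ arrays. It was 5.9-fold higher in progenitors (log2 difference 2.56 ± 0.20 (SE), limma adjusted p = 1.1e-08). No RFP+ array reached the near-background level of its own array, and against that level the difference was at least 4.91-fold. Bounds of this kind take, on each dim array, the near-background level in place of the gene's own value. Wherever they are given they rest on array means and carry no sampling error, so they are not confidence limits. For Kif4 the 95% interval of the log2 difference was 2.14 to 2.98, which reaches under 4.91-fold. A Kif4 pseudogene has probe sets of its own, and its brighter one stayed dim in both groups (mean 103 against 66.7), with a log2 difference of 0.50 (adjusted p = 0.0801).

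Kif11, the bipolar motor that pushes spindle poles apart, had intensities of 2152, 1629 and 2545 on the GFP+ arrays and 316, 341 and 419.9 on the RFP+ arrays. The GFP+ arrays spread from 1629 to 2545, which is small beside the 5.61-fold difference between the groups (log2 difference 2.49 ± 0.22 (SE), limma adjusted p = 3.79e-08). Kif15 can share the task of keeping the poles apart, and its values were 1303, 1184 and 1516 on the GFP+ arrays and 200.4, 259 and 263 on the RFP+ arrays. This gene was 5.26-fold higher in progenitors (log2 difference 2.40 ± 0.21 (SE), limma adjusted p = 3.1e-08).

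The motors of the midzone and of cytokinesis, the final cut between daughter cells, followed the same direction. Kif23, the motor subunit of centralspindlin, gave 2445, 1976 and 2089 on the GFP+ arrays and 382, 394 and 431 on the RFP+ arrays, a 5.22-fold difference (log2 difference 2.38 ± 0.20 (SE), limma adjusted p = 2.18e-08). Kif20a, which brings regulators to the midzone, gave 1002, 1281 and 1281 on the GFP+ arrays and 158, 262 and 244 on the RFP+ arrays, with RFP+ replicate 1 the dimmest of all (5.14-fold, log2 difference 2.36 ± 0.22 (SE), limma adjusted p = 8.86e-08). Kif14, which works with citron kinase in cytokinesis, gave 293, 301 and 439 on the GFP+ arrays and 41.4, 54.5 and 50.5 on the RFP+ arrays. Its measured difference was 5.49-fold (log2 difference 2.46 ± 0.21 (SE), limma adjusted p = 3.55e-08), but all RFP+ values lay under the near-background level, against which it was at least 1.58-fold. A second Kif14 probe set was dim in both groups (mean 61.2 against 68.6) and gave a log2 difference of -0.13, so the mean of both probe sets gave 1.16 (adjusted p = 0.000149). Kif20b, a relative of Kif20a that also acts late in division, had the smallest difference of the 11, 2.96-fold (log2 difference 1.56 ± 0.21 (SE), limma adjusted p = 6.67e-06), and its RFP+ values of 271 to 310 stayed above the near-background level on all 3 arrays.

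Motors that act at chromosomes and on microtubule ends completed the block. Kif2c takes microtubules apart at centromeres, and its values of 1313, 1225 and 1405 on the GFP+ arrays and 241, 228 and 252 on the RFP+ arrays were among the least scattered of the family. The difference was 5.19-fold (log2 difference 2.38 ± 0.20 (SE), limma adjusted p = 1.86e-08). Kif18b, which shortens astral microtubules, gave 733, 799.8 and 699 on the GFP+ arrays and 136, 175 and 178 on the RFP+ arrays, a measured difference of 4.26-fold (log2 difference 2.09 ± 0.20 (SE), limma adjusted p = 1.25e-07). No RFP+ array exceeded the near-background level, so the difference was at least 3.38-fold. Its relative Kif18a, which dampens chromosome movements, was 3.87-fold higher in progenitors (mean intensity 764 ± 151 against 184 ± 28, SD, n = 3 arrays each), with 1 of 3 RFP+ arrays above the near-background level. Kif22, a motor on chromosome arms, was 3.9-fold higher (1382 ± 217 against 343 ± 60.4, SD, n = 3 each).

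The exception in this group was Kif2b, a relative of Kif2c. Its intensities were 140.4, 60 and 63.9 on the GFP+ arrays and 105, 132 and 83 on the RFP+ arrays, under the near-background level on every array, and its log2 difference was -0.30 ± 0.26 (SE, adjusted p = 0.397). Kifc1, a mitotic motor that walks the opposite way, is left out of the counts because its probe set is also annotated to Kifc5b. That shared probe set had a mean of 583 ± 73.7 on the GFP+ arrays and 262 ± 49.3 on the RFP+ arrays (SD, n = 3 each), a log2 difference of 1.12 that was not tested.

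**Figure D2:**
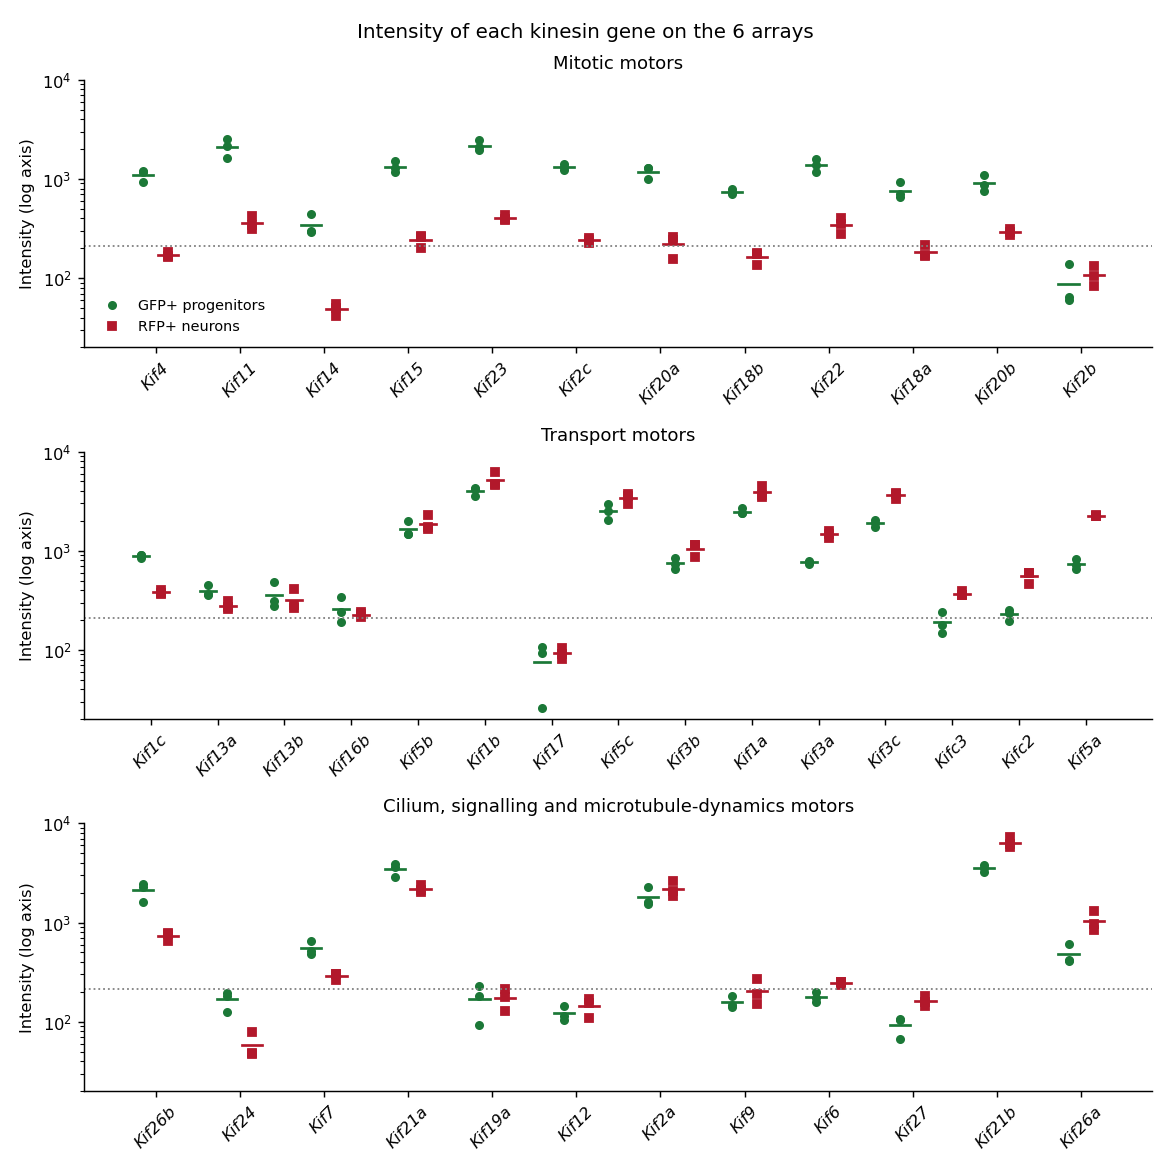
Intensity on a log axis of the 39 kinesin genes on each array, with GFP+ progenitors as green circles and RFP+ neurons as red squares, and the group mean as a short line. The dotted line is the mean near-background level of the arrays, from the 95th percentiles of the olfactory receptor genes. The groups part widely for every mitotic motor other than Kif2b, and Kif5a shows the widest gap among the transport motors.

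Because the mitotic motors moved together, their promoters were searched for sequence elements that are known from genes switched on late in the cell cycle. These are the cell cycle homology region (CHR, letters TTTGAA), the CCAAT box (letters CCAAT) and sites like those of E2F factors (TTTCCCGC, TTTGGCGC, TTTCGCGC or TTTGCCGC), each on both strands. A match of one can share letters with a match of another. RefSeq promoter windows of 250 bases before the annotated start (GRCm38.p6) were matched for 31 of the 39 genes, 35 windows in all. Of 11 mitotic motor windows, 5 held a CHR match, where 15.99% of all 32851 windows did, 7 held a CCAAT match (33.9% of all) and 2 held an E2F-like match (1.86% of all). Of 12 transport motor windows, 1 held a CHR match, 4 a CCAAT match and none an E2F-like match. The windows of Kif1b overlap and hold the same CCAAT matches. By gene, 1 of 10 transport motors held a CHR match and 3 a CCAAT match, where 18.3% and 37.5% of all genes did. Of 12 windows of the third group, 2 held a CHR match, 4 a CCAAT match and none an E2F-like match. These windows came from 10 genes, of which 2 held a CHR match and 4 a CCAAT match. A match is a description of letters and not a binding site. In the 100 bases nearest the start, only 7 of the 35 windows lay outside every annotated gene. Of the mitotic windows with a CHR match, those of Kif14, Kif22 and Kif2c overlapped their own gene there. That of Kif15 overlapped another annotated gene, and only that of Kif11 overlapped none. The counts are therefore not limited to sequence upstream of a gene.

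The 100 bases before the start are shown for 5 of the 7 windows that lie outside every annotated gene, to set mitotic motors beside a motor from each other group. The windows not shown, of Kif2a and Kif17, held neither element in these bases. Matches to the CHR or the CCAAT box, on either strand, are in capitals. In Kif11 (chr19:37376282-37376381, plus strand) a reversed CCAAT box begins 45 bases before the start and a reversed CHR follows at 19 bases. In Kif4 (chrX:100625965-100626064, plus strand) a reversed CCAAT box directly precedes the start. Kif2b (chr11:91577556-91577655, minus strand), the mitotic motor that did not pass, also has a CCAAT box, 44 bases before the start. Kif26b (chr1:178529025-178529124, plus strand), a motor of the third group that was also higher in progenitors, has a reversed CCAAT box at 73 bases and a CHR at 9 bases. Kif5c (chr2:49619186-49619285, plus strand), a transport motor, has neither.
Kif11: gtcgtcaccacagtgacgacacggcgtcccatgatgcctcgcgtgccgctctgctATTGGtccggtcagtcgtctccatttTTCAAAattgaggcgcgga
Kif4: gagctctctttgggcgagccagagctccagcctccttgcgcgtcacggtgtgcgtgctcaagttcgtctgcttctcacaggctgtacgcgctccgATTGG
Kif2b: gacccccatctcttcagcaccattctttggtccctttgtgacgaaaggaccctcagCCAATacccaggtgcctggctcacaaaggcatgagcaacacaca
Kif26b: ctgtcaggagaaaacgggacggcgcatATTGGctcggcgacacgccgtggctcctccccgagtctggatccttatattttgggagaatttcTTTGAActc
Kif5c: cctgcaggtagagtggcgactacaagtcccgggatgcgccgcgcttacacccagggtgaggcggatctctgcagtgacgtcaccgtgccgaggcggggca
Both elements stood within these 100 bases in 2 of 11 mitotic windows and in none of 12 transport windows, in 1 of 12 windows of the third group and in 1.06% of all windows.

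The known partners of the mitotic motors were higher in the same arrays. All 15 measured spindle and midzone partners were higher in GFP+ progenitors, with a median log2 difference of 2.29. Cenpe, itself a kinesin at the kinetochore whose symbol lies outside the family names, had a measured difference of 6.94-fold (log2 difference 2.79 ± 0.21 (SE), limma adjusted p = 7.04e-09). For Birc5, a subunit of the chromosomal passenger complex, it was 5.71-fold. Neither gene exceeded the near-background level on any RFP+ array, so their differences were at least 5.43-fold and at least 3.23-fold. Tpx2, which assembles spindles with Kif11, was 5.61-fold higher. Ect2, which is recruited by centralspindlin to set the cleavage plane, was 5.48-fold higher. The 5 measured markers of dividing cells, among them Mki67 and Top2a, were all higher in GFP+ as well, with summed intensities of 17717 to 18544 against 4900.1 to 5438.

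Endothelial and mural markers were higher in the same arrays as the mitotic motors. On GFP+ replicate 1 the endothelial markers lay 0.91 below the GFP+ mean (median log2 difference -0.91, 9 of 10 lowest there) and the mitotic motors -0.11 from it. The mural markers lay 0.14 above it on that array (5 of 8 highest there). On GFP+ replicate 3 the medians were 0.70 for endothelial markers, 0.06 for mural markers and 0.12 for mitotic motors. On GFP+ replicate 2 they were 0.11, -0.24 and -0.10. On RFP+ replicates 1, 2 and 3, from the RFP+ mean, the endothelial medians were -0.25, -0.002 and 0.27. Those of the mitotic motors were -0.13, 0.06 and 0.11 there, and those of the mural markers -0.03, -0.08 and 0.04. The part of these cells in the mitotic result was not tested.

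The transport motors showed smaller differences, and those that passed did not all share a direction. Among the heavy chains of conventional kinesin, the motor that carries mitochondria and vesicles along axons, only 1 of 3 passed the test. Kif5a, the form known from neurons, had intensities of 654, 719 and 830.5 on the GFP+ arrays and 2271, 2224 and 2232 on the RFP+ arrays, with hardly any spread on the RFP+ arrays. It was 3.02-fold higher in neurons (log2 difference -1.60 ± 0.20 (SE), limma adjusted p = 3.03e-06), the widest difference in that direction in the family. Kif5c, another neuronal form, gave 2500.5, 2059.9 and 2941 on the GFP+ arrays and 2986, 3541 and 3739 on the RFP+ arrays, which do not overlap, but its log2 difference of -0.46 ± 0.21 (SE) did not pass (adjusted p = 0.106 in limma, and 0.0343 with an intensity trend and robust moderation). The annotation of the Kif5a and Kif5c probe sets has 1 sequence record in common, so cross-hybridisation between them was not tested. Kif5b, the ubiquitous form, gave 1471, 1473 and 2004 on the GFP+ arrays and 1719, 1646 and 2267 on the RFP+ arrays. These overlap, and its log2 difference was -0.19 ± 0.21 (SE, adjusted p = 0.539, 95% interval -0.63 to 0.26).

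The subunits of heterotrimeric kinesin, which serves both the axon and transport within cilia, were measured by separate probe sets. Kif3a, its common motor subunit, had intensities of 739.6, 767 and 792 on the GFP+ arrays and 1582, 1337 and 1481 on the RFP+ arrays, a 1.89-fold difference (log2 difference -0.92 ± 0.20 (SE), limma adjusted p = 0.0012). Kif3c, an alternative partner of Kif3a found in neurons, gave 1738, 1898 and 2059 on the GFP+ arrays and 3307, 3751 and 3851 on the RFP+ arrays, a 1.91-fold difference (log2 difference -0.93 ± 0.20 (SE), limma adjusted p = 0.00116). For both genes all 3 RFP+ arrays lay above all GFP+ arrays. Kif3b, the usual partner, gave 659, 738 and 838 on the GFP+ arrays and 863, 1138 and 1138 on the RFP+ arrays, and its log2 difference of -0.48 ± 0.21 (SE) missed the threshold (adjusted p = 0.0901 in limma) but passed in the fit blocked by replicate number (adjusted p = 0.0381) and without the dimmest 50% of genes (0.044). Kifap3, the accessory subunit that binds cargo, was 1.88-fold higher in neurons (log2 difference -0.91). Kif17, a homodimeric relative that carries receptors in dendrites, stayed under the near-background level on every array, with group means of 74.9 and 92.5 and a log2 difference of -0.39 ± 0.30 (SE).

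Motors of the Kif1 and Kif13 type, which carry synaptic vesicle precursors and endosomes, went different ways. Kif1a, the motor of synaptic vesicle precursors, gave 2390.2, 2667 and 2391 on the GFP+ arrays and 3657, 4458 and 3489.8 on the RFP+ arrays, a 1.55-fold difference (log2 difference -0.63 ± 0.20 (SE), limma adjusted p = 0.0226). This call was lost without GFP+ replicate 1 (adjusted p = 0.0534), without RFP+ replicate 1 (0.0551) and without RFP+ replicate 2 (0.117). Kif1c, a widely expressed relative, was the only transport motor that passed toward the progenitors in this fit, with 851, 899 and 913 on the GFP+ arrays and 368, 373 and 404 on the RFP+ arrays. Its difference was 2.27-fold (log2 difference 1.18 ± 0.20 (SE), limma adjusted p = 8.58e-05), and a second probe set gave a log2 difference of 0.85. Kif1b gave 3539, 4280.0 and 4204 on the GFP+ arrays and 4609, 6197 and 4654 on the RFP+ arrays, groups that do not overlap, with a log2 difference of -0.35 ± 0.21 (SE, adjusted p = 0.211). Kif13a (0.46 ± 0.20, SE), Kif13b (0.15 ± 0.24) and Kif16b (0.14 ± 0.22), motors of endosomes and membrane traffic, did not pass either.

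Among the motors that walk toward microtubule minus ends, Kifc2, a neuronal motor, gave 236, 197 and 255 on the GFP+ arrays and 597, 462 and 602 on the RFP+ arrays. It was 2.32-fold higher in neurons (log2 difference -1.21 ± 0.21 (SE), limma adjusted p = 0.000126). Kifc3 gave 243, 179 and 147 on the GFP+ arrays and 358, 394 and 359.7 on the RFP+ arrays, a 1.91-fold difference (log2 difference -0.93 ± 0.21 (SE), limma adjusted p = 0.00213). Both were faint in progenitors, where 2 of 3 arrays for Kifc2 and 1 of 3 for Kifc3 exceeded the near-background level of the array.

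The light chains and cargo adaptors of the transport motors were higher in neurons or did not pass. Of 24 measured members of this list, 14 passed toward the RFP+ neurons and none toward the GFP+ progenitors in limma, with a median log2 difference of -0.60. Blocked by replicate number, 15 passed toward the neurons and Ppfia1 passed in the other direction (log2 difference 0.52, adjusted p = 0.0434). Without both arrays numbered 1, a setting with 2 arrays per group, 9 passed in the neuronal direction. Of the 24 log2 differences 3 were above 0.

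Clstn2, a calsyntenin of the family that links kinesin light chains to vesicles, differed most, 6.51-fold (log2 difference -2.70 ± 0.21 (SE), limma adjusted p = 1.1e-08), with a mean intensity of 310.4 ± 64.4 against 2097 ± 305 (SD, n = 3 each). Ppfia2 and Ppfia3, liprins that work with Kif1a at synapses, were 3.7-fold and 2.13-fold higher in neurons, and Clstn3 was 2.12-fold higher. The light chain gene Klc1 was 1.51-fold higher in neurons (adjusted p = 0.0301 in limma, up to 0.126 with 1 array left out), whereas Klc3 (log2 difference -0.14) and Klc4 (0.08) did not pass.

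**Figure D3:**
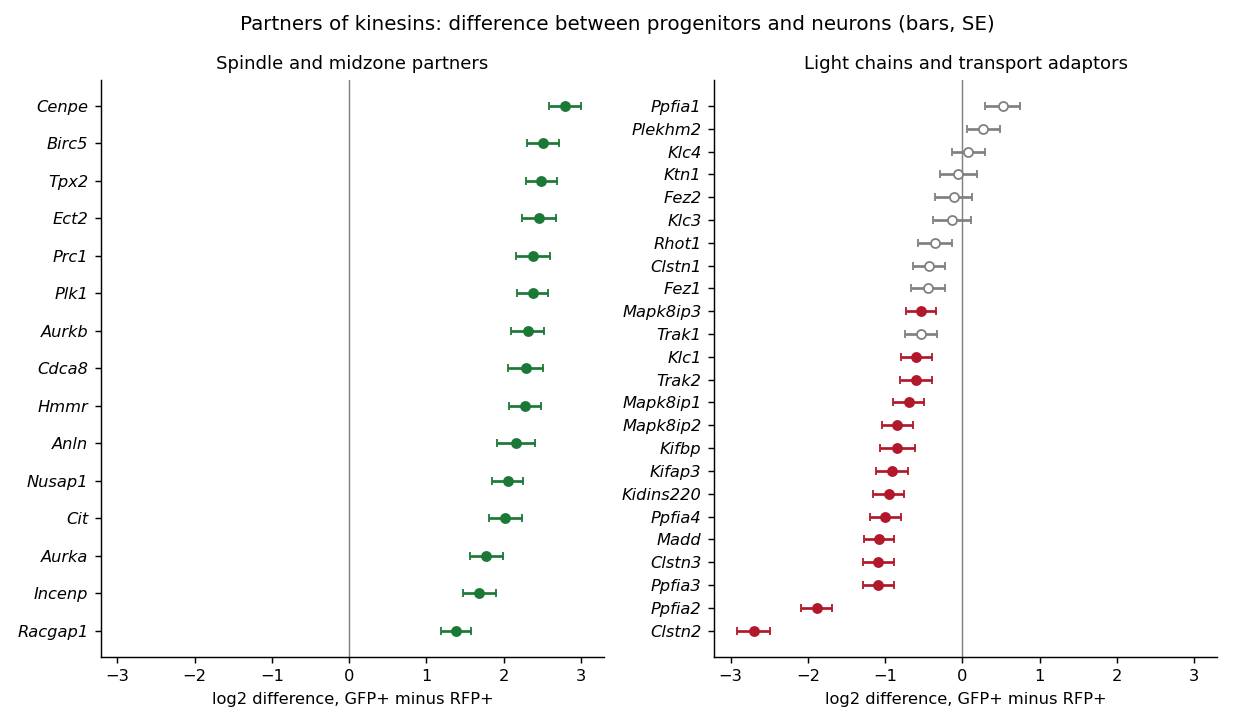
Log2 difference (GFP+ minus RFP+) with its SE for 15 partners of the mitotic motors and 24 light chains and adaptors of the transport motors. Filled points passed at an adjusted p under 0.05 (green, GFP+ higher; red, RFP+ higher) and open points did not. The partners of the mitotic motors lie between 1.38 and 2.79, and the transport partners between -2.70 and 0.52.

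The third group held motors of Wnt, Hedgehog and GDNF signalling, of cilia and of microtubule growth. Kif26b, which has been tied to Wnt5a signalling and cell adhesion, had intensities of 1612, 2303 and 2418 on the GFP+ arrays and 758, 792 and 652 on the RFP+ arrays, a 2.8-fold difference (log2 difference 1.49 ± 0.21 (SE), limma adjusted p = 1.82e-05). Its paralogue Kif26a, a regulator of growth factor signalling in neurons, went the other way with 412, 601 and 419 on the GFP+ arrays and 976, 1319.7 and 843 on the RFP+ arrays. It was 2.15-fold higher in neurons (log2 difference -1.10 ± 0.23 (SE), limma adjusted p = 0.000782), and for neither gene did the groups overlap. A second Kif26b probe set gave a log2 difference of 1.64.

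Kif7, the ciliary motor that organises Hedgehog signalling at the cilium tip, gave 519, 486 and 646 on the GFP+ arrays and 264, 303 and 299.8 on the RFP+ arrays. It was 1.85-fold higher in progenitors (log2 difference 0.88 ± 0.20 (SE), limma adjusted p = 0.00223), and its second probe set gave 1.04. Kif27, a close relative of Kif7 known from motile cilia, gave 104, 67 and 107 on the GFP+ arrays and 146, 157 and 182 on the RFP+ arrays, under the near-background level on every array. Its difference toward the neurons (log2 difference -0.73 ± 0.21 (SE), limma adjusted p = 0.014) was lost without GFP+ replicate 2 (adjusted p = 0.0752) or RFP+ replicate 3 (0.0608). Kif24, which takes centriolar microtubules apart and restrains cilium formation, gave 183, 125 and 196 on the GFP+ arrays and 47.2, 79.4 and 48.4 on the RFP+ arrays. It was higher in progenitors (log2 difference 1.31 ± 0.23 (SE), limma adjusted p = 0.000158) but also stayed under the near-background level throughout, so no fold is given for either gene.

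Kif21a and Kif21b, motors that limit microtubule growth, were bright in both populations and differed in opposite directions. Kif21b gave 3569, 3778 and 3252 on the GFP+ arrays and 6134, 7225 and 5739 on the RFP+ arrays, a 1.79-fold difference toward the neurons (log2 difference -0.84 ± 0.20 (SE), limma adjusted p = 0.00301). Kif21a gave 3671, 2884 and 3934 on the GFP+ arrays and 2051, 2115 and 2401 on the RFP+ arrays, a 1.58-fold difference toward the progenitors (log2 difference 0.66 ± 0.21 (SE), limma adjusted p = 0.0191). The Kif21a call was lost on leaving out GFP+ replicate 1 (adjusted p = 0.0525), GFP+ replicate 3 (0.0612), RFP+ replicate 1 (0.0807) or RFP+ replicate 2 (0.0635), and its log2 difference then lay between 0.57 and 0.64.

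Kif2a, a microtubule depolymerase that prunes axon branches and also acts at spindle poles, gave 1527, 1629 and 2272 on the GFP+ arrays and 2085, 1859 and 2651 on the RFP+ arrays. The groups overlap, and its log2 difference was -0.28 ± 0.22 (SE, adjusted p = 0.344, 95% interval -0.75 to 0.18). Kif6, a motor of ependymal cilia, had 157 to 199 on the GFP+ arrays and 232 to 254 on the RFP+ arrays. Its log2 difference of -0.45 ± 0.20 (SE) missed the threshold (adjusted p = 0.0935 in limma) and passed in the blocked fit (adjusted p = 0.0496). Its second probe set gave 0.07. Kif9 (-0.32 ± 0.22, SE), Kif12 (-0.21 ± 0.22) and Kif19a (-0.08 ± 0.27), genes of ciliated and epithelial cells, lay near or under the near-background level in both groups and did not pass. Of the 14 family members that did not pass, 13 had a 95% interval within a 2-fold difference either way, the exception being Kif17. For dim members among them, such as Kif2b and Kif12, this does not exclude a 2-fold difference. Both lay under the near-background level on every array, and the folds of dim genes are understated.

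Ratios between related genes on the same array show where paralogues changed unequally, although they say nothing of which transcript is more abundant. Of 14 pairs compared, 10 had ratios that did not overlap between the groups, where 46.4% of all pairs of genes tested did not. An exact permutation test of 3 arrays against 3 cannot give a p under 0.1 (two-sided), which adjusted over the 14 pairs is 0.14, so none can pass. The log2 ratio of Kif2a to Kif2c was 0.22, 0.41 and 0.69 on the GFP+ arrays and 3.03, 2.94 and 3.31 on the RFP+ arrays, the widest shift (-2.66). Kif26a over Kif26b was -1.93, -1.91 and -2.48 in progenitors and 0.36, 0.72 and 0.36 in neurons, a shift of -2.59.

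Among the transport motors Kif1a over Kif1c shifted by -1.81, from a mean of 3.28 ± 0.23 in neurons to 1.47 ± 0.09 in progenitors (SD, n = 3 each). Kif5a over Kif5b was -1.15, -1.02 and -1.26 in progenitors and 0.40, 0.43 and -0.02 in neurons, a shift of -1.41. Kif5a over Kif5c shifted by -1.14. Kif21a over Kif21b shifted the other way, by 1.51. For Kif3c over Kif3a the ratio was 1.29 ± 0.07 in progenitors and 1.30 ± 0.22 in neurons (SD, n = 3 each), which overlap (shift -0.01, exact p = 0.9). Overlap was also seen for Kif5c over Kif5b (shift -0.27), Kif13a over Kif13b (0.31) and Kif18a over Kif18b (-0.14).

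**Figure D4:**
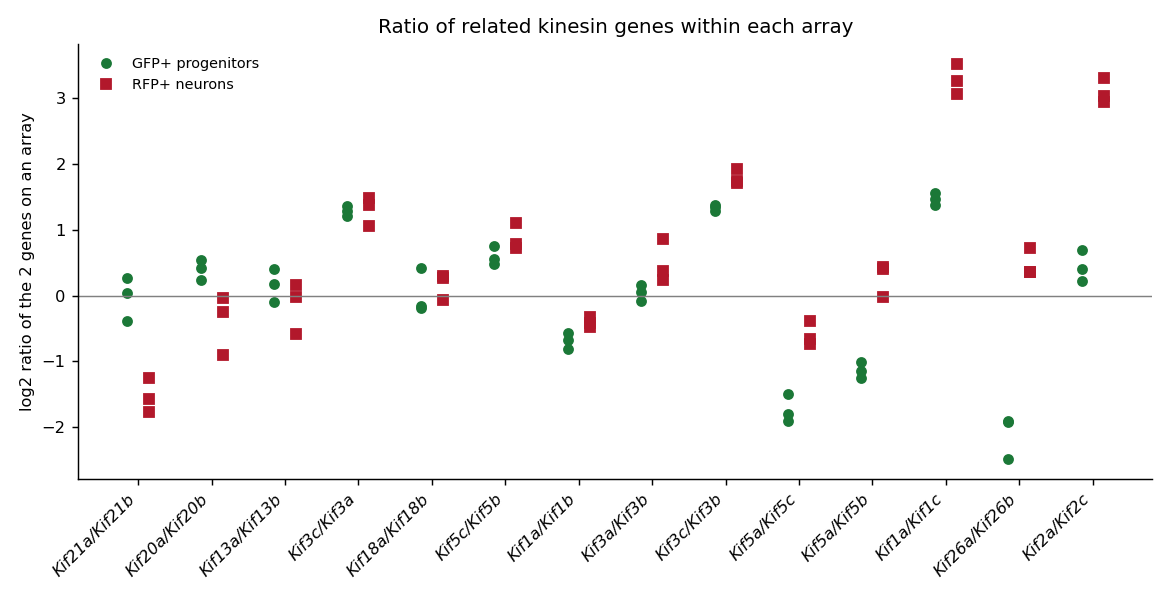
Log2 ratio of 2 related kinesin genes on each array for 14 pairs, ordered by the shift between groups, with GFP+ progenitors as green circles and RFP+ neurons as red squares. Kif2a/Kif2c and Kif26a/Kif26b show the widest gaps, and Kif3c/Kif3a, Kif5c/Kif5b, Kif13a/Kif13b and Kif18a/Kif18b overlap.

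Within each group some arrays were brighter for much of the family. GFP+ replicate 3 was the brightest GFP+ array for 25 of 39 members (median log2 deviation from the GFP+ mean 0.15), including 11 of the 15 transport motors and 7 of the 12 mitotic motors. RFP+ replicate 1 was the dimmest RFP+ array for 22 of 39 (median -0.09). The same counts were not made over all genes, so this pattern cannot be called particular to the family. Endothelial markers were brightest on GFP+ replicate 3 for 10 of 10 genes (median 0.70). Without GFP+ replicate 3, 15 members were higher in progenitors and 9 in neurons, and all 11 mitotic calls and the 6 transport calls toward the neurons were made.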

How the data were processed

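Total RNA from 6 sorted samples was measured on Affymetrix whole-transcript arrays, 1 array per sample, biotin-labelled per the labels' protocols. The values are the intensity of each probe set on a linear scale, as deposited by the authors. Per the submitters' processing notes Affymetrix Expression Console was used. Its version, the background correction, normalization and summarisation are not given in the sources used here. Of 35557 probe sets, 21789 carried 1 gene symbol, 1621 several and 12147 were unnamed here, using the platform annotation. Array medians lay between 210.31 and 221.1, with 53 to 112 probe sets at 0.

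For each gene the probe set with the highest mean was kept, with no filter on dim genes. log2(intensity + 16) was fitted with limma 3.58.1 in R 4.3.3, as a two-sided moderated test with 15.4 prior degrees of freedom, and p-values were adjusted over all 19938 genes by Benjamini-Hochberg. The median SE was 0.215. Fold changes and log2 differences were computed here from the deposited intensities. Related genes were compared by exact permutation of per-array ratios. Tables and figures used Python 3.11.15, pandas 2.3.3 and matplotlib 3.10.9. Tested on simulated data of this comparison (19938 genes), the fit found 17 of 50 genes that differed 2-fold and 45 of 50 that differed 4-fold. It found none of 50 that differed 1.5-fold. In that simulation 19738 genes were left unchanged, whereas in the data 13.8% of genes passed with GFP+ higher and 16.2% with RFP+ higher. With so few changed genes the adjustment is stricter, so these counts do not give the power in the data, where Klc1 passed at 1.51-fold.

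Family members, role groups and partner lists were chosen by symbol and textbook role, with earlier results of these data known. Every member is named. Values on every array are given for up to 8 passing members per role group with the largest differences and for members passing against their group's majority; those of Kif1b, Kif2a, Kif2b, Kif3b, Kif5b and Kif5c were added after their values were seen. Of the partner lists, the 4 passing members with the largest differences are given, and Kifap3, Klc1, Klc3, Klc4 and Ppfia1 were added after seeing values. Of 29 symbols in the light chain and adaptor list 24 were measured here.

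The titles carry replicate numbers. Deviations of same-numbered GFP+ and RFP+ arrays from their group means correlated across genes at 0.204, 0.288 and 0.361, and those of different numbers at -0.266 to 0.00416, so the numbers were taken to pair the arrays. This comes from the data, since the labels do not say what the numbers stand for. The fit without the block was kept as the main one, so its p-values, SEs and intervals ignore this pairing, as does the permutation of ratios. With the block 3324 genes passed with GFP+ higher and 4047 with RFP+ higher, against 2742 and 3236 in the main fit. Alternatives were the block, quantile normalization, median centring, an offset of 1, filters that drop the dimmest 30% or 50% of genes, averaged probe sets, an intensity trend with robust moderation, array weights, and leaving out each array or both arrays numbered 1.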

Additional observations from a re-analysis of the deposited data

How the results depend on the processing

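The count of mitotic motors higher in GFP+ progenitors was 11 in the main fit and under every alternative run, other than 10 without the dimmest 50% of genes, where fewer members are tested. Transport motors higher in RFP+ neurons numbered 5 to 7. Without the dimmest 50% of genes 2 transport motors were higher in progenitors, as Kif13a then passed (adjusted p = 0.0452). That setting reruns the fit on fewer genes, which changes both the moderation and the adjustment. Which of these mattered was not tested. Kif3b (0.044) and Trak1 (0.0229) passed toward the neurons without the dimmest 50% of genes. Over all genes 1848 were higher in neurons without both arrays numbered 1. In the adaptor list 9 were higher in neurons under that setting. There 1 gene, Ppfia1, was higher in progenitors with the replicate block and with the intensity trend and robust moderation, and 0 to 1 were with 1 array left out. With the replicate block Kif3b, Kif6 and Ppfia1 passed, and the counts of each role group stayed within 1.5 times the main count. Trak1 also passed (adjusted p = 0.0331), and the block changed no other call in the family or the partner lists. Without both arrays numbered 1, Kif1a (adjusted p = 0.106) and Kif21a (0.154) did not pass.

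The family median of -0.08 became 0.14 and 0.56 without the dimmest 30% and 50% of genes and ran from -0.11 to 0.033 with 1 array left out. The median of the third group became 0.19 without the dimmest 50%, ran from -0.35 to -0.13 with 1 array left out and was -0.32 without both arrays numbered 1. The causes of these reversals were not tested beyond the loss of dim members in the filtered settings. Members that did not pass changed sign with 1 array left out: Kif13b ranged from -0.078 to 0.33, Kif16b from -0.061 to 0.32, Kif17 from -0.68 to 0.091 and Kif19a from -0.34 to 0.26. So did the adaptors Klc3 (-0.40 to 0.088), Klc4 (-0.12 to 0.20), Fez2 (-0.34 to 0.083) and Ktn1 (-0.27 to 0.16), and Klc4 was -0.042 without both arrays numbered 1. The shift of the log2 ratio Kif3c/Kif3a was 0.019 with quantile normalization and ran from -0.13 to 0.076 with 1 array left out, and that of Kif18a/Kif18b was 0.021 without both arrays numbered 1. Signal over background limits Kif2b, Kif12, Kif17, Kif24 and Kif27, which lay under the near-background level on all 6 arrays.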
